A study of Mus musculus with 12 samples.

Results

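Interferon-stimulated genes are genes whose transcription rises when interferons bind their receptors, and 45 mouse genes of this class were followed here in thymocytes of 3 genotypes. A gene was taken when a probe carrying its symbol was detected, with a detection p-value under 0.05, on at least 3 of 12 arrays, and its brightest such probe stood for it. This left 40 of the 45 genes among 10526 genes in all. Ifit1, Oas1a, Gbp6 and Xaf1 have probes, but none was detected on any of the 12 arrays, and Ifi44 has no probe in the annotation used here.

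Type I interferons act through the receptor chains Ifnar1 and Ifnar2, the kinases Jak1 and Tyk2, and a complex with Stat2 and Irf9 that binds the interferon-stimulated response element (ISRE) in target promoters. Interferon gamma acts through Ifngr1 and Ifngr2, and its targets carry the gamma-activated site (GAS). The targets include transcription factors of the pathway itself, sensors of viral RNA and DNA, antiviral effectors, GTPases that attack intracellular parasites, and the machinery that loads peptides on MHC class I. In the thymus, interferons are made at a low level without infection, and maturing thymocytes respond to them.

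The study asked whether the transcription factor Lyl1 is needed for the T-cell leukaemia that the oncogene Lmo2 drives in mice. Cells lacking CD4 and CD8 (double-negative thymocytes) were sorted from the thymus of C57BL/6 mice aged 2 months. Wild-type mice gave 6 arrays, CD2-LMO2 transgenic mice 3, and CD2-Lmo2 transgenic mice with a Lyl1 knockout 3; both transgenic groups are called here by those labels, as Lmo2 and Lmo2 Lyl1-knockout. In a CD2 construct the control elements of the CD2 gene drive expression in lymphoid cells, so other cell types are not where the transgene is aimed. Whether every array stands for its own mouse is not stated. The p-values therefore reflect only how far these arrays spread, and that spread may be technical. Values are log2 intensities of the authors' table, and 1 unit is a doubling of brightness. Levels are compared between arrays for 1 probe at a time, never between probes.

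The Lyl1 probe checked the knockout label: it read 6.66 at the lowest, 7.14 at the median and 7.25 at the highest on wild-type arrays, 10.01, 10.19 and 11.64 on Lmo2-labelled arrays, and 4.80, 5.03 and 4.90 on Lmo2 Lyl1-knockout arrays, where it was not detected. On raw values normalized here, it was at least 36.9-fold higher on Lmo2 than on knockout arrays (limma adjusted p = 1.52e-06). The Lmo2 probe did not check the transgene: it read 7.35, 5.75 and 6.62 on the arrays labelled Lmo2 against 6.77 to 8.62 on wild-type arrays (-1.14 ± 0.50 SE, limma adjusted p = 0.167), and the sources used here do not say whether it reads the transgene. Comparisons with the Lmo2 group therefore follow its label. All 8 T-lineage markers measured, Cd3e, Thy1 and Bcl11b among them, were detected on every array except Ptcra on 1 Lmo2 array. Of these, 1 fell on Lmo2-labelled arrays (lowest difference -2.78) and 1 rose on knockout against Lmo2-labelled arrays (highest 2.85). The co-receptor genes measured were Cd4 and Cd8b1, and Cd8b1 read 12.42 to 13.19 on wild-type arrays. Of these 2, 1 fell and 1 rose in the same comparisons (-2.26 and 2.08), beside 5.89% and 4.79% of all genes (limma, adjusted p under 0.05). Causes were not tested. Between 37.9% and 43.0% of probes, and 36 to 40 of the 40 genes, were detected per array. The raw table gives 3 wild-type columns plain names and the other 3 a name with NHD13, which the labels do not explain; by elimination the latter are wild-type replicates 4 to 6. These sets of 3 differed at 705 genes, 6.70% of those tested, so results are also given against each set.

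The interferon-stimulated genes showed no shared direction between genotypes. Lmo2 against wild-type arrays, 1 of 40 genes rose and 3 fell, beside 6.64% of all genes that rose and 5.89% that fell (limma, adjusted p under 0.05). Lmo2 Lyl1-knockout against Lmo2, 4 rose and 0 fell, beside 4.79% and 5.57% of all genes. Lmo2 Lyl1-knockout against wild-type, 1 rose and 0 fell, beside 0.637% and 0.409% of all genes. These comparisons share arrays, so their values are set side by side and not counted as separate support. Without adjustment, 8, 8 and 7 of the 40 genes had p under 0.05, beside 2762, 2385 and 1280 of the 10526. The median log2 difference of the 40 genes was 0.00, 0.07 and 0.07 in the 3 comparisons, and that of all genes -0.02, 0.01 and -0.01. In bulk samples, fewer cells of a type and less RNA per cell cannot be told apart.

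**Figure D1:**
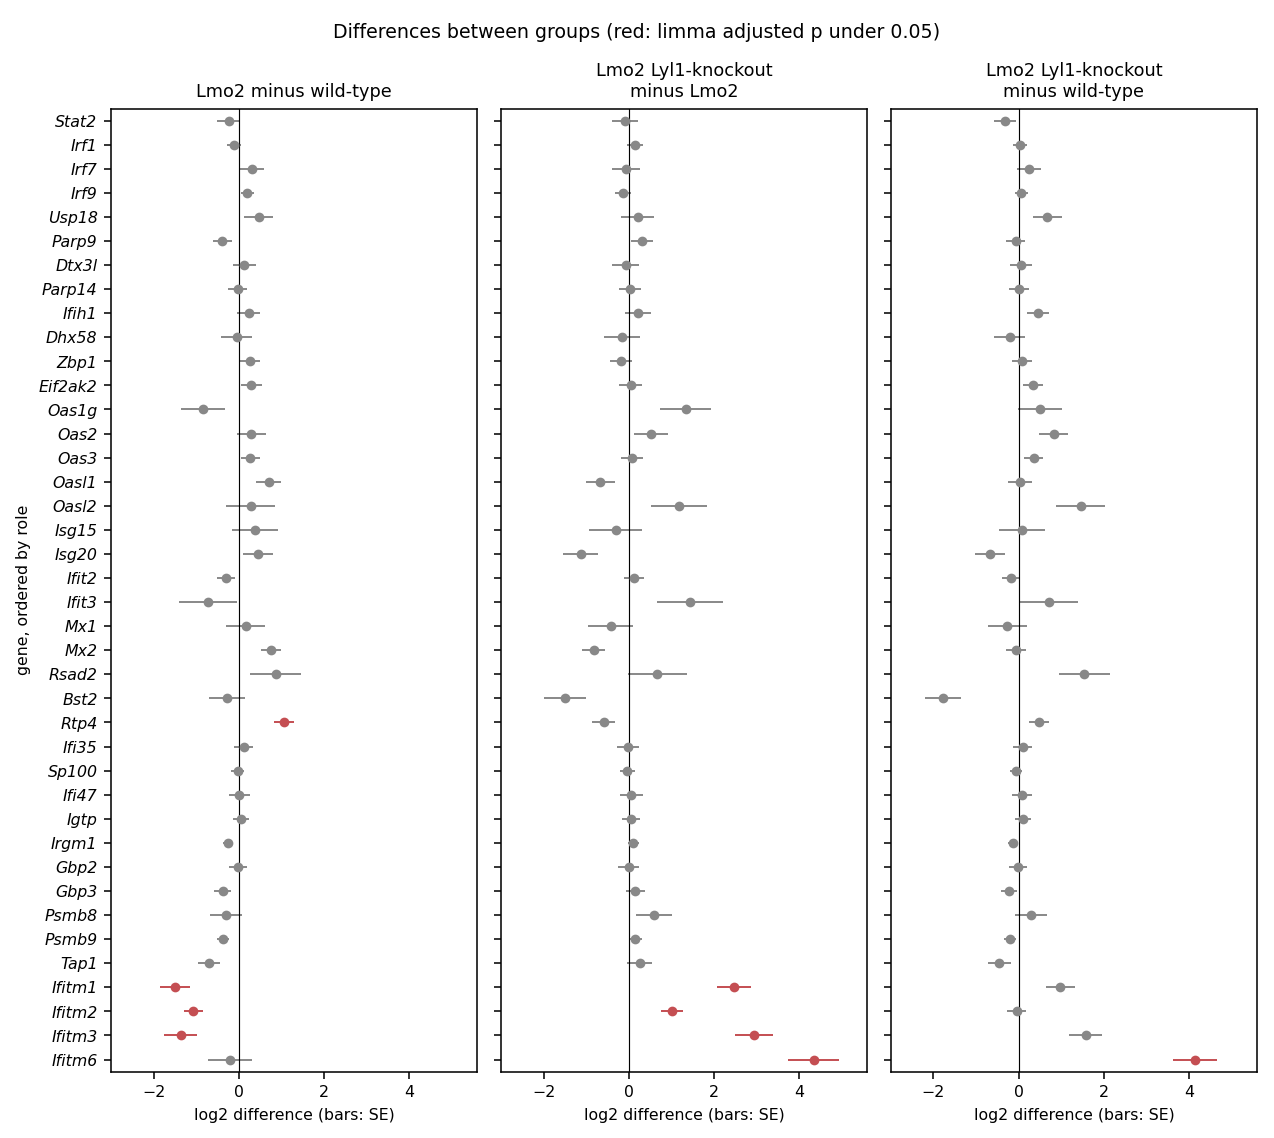
Log2 difference of each of the 40 genes in the 3 comparisons, with bars for the standard error; genes are ordered by role from transcription factors at the top to IFITM genes at the bottom. Red points passed limma's adjusted threshold: 4 in the left panel, 4 in the middle and 1 on the right, all but Rtp4 in the IFITM family.

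The calls lay in the IFITM family, apart from Rtp4. IFITM proteins sit in cell membranes and hinder the fusion of viruses with the cell; Ifitm1, Ifitm2 and Ifitm3 are broadly interferon-inducible, while Ifitm6 is a mouse family member known from myeloid cells. Of these 4 genes 3 fell on Lmo2-labelled arrays, 4 were higher on Lmo2 Lyl1-knockout than on Lmo2-labelled arrays, and 1, Ifitm6, was higher there than on wild-type arrays.

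Ifitm3 read 8.98 at the lowest, 9.45 at the median and 10.05 at the highest on wild-type arrays, 9.09, 7.50 and 7.74 on Lmo2-labelled arrays, and 10.10, 11.45 and 11.59 on Lmo2 Lyl1-knockout arrays. Lmo2 replicate 1 lay inside the wild-type range and the other Lmo2-labelled arrays below it, while the 3 knockout arrays lay above every other array. The Lmo2 difference from wild-type was -1.36 ± 0.39 (SE; limma adjusted p = 0.0389), and the knockout difference from Lmo2 was 2.94 ± 0.45 (0.00106). The first call was lost in 12 of 21 alternatives, among them the fits without Lmo2 replicate 2 or 3 and against either wild-type set alone (limma adjusted p of up to 0.223). Against wild-type, the knockout difference of 1.57 ± 0.39 missed the threshold (limma adjusted p = 0.0952).

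Ifitm1 read 9.69 to 10.48 on wild-type arrays (median 9.79), 8.69, 8.41 and 8.11 on Lmo2-labelled arrays, and 9.71, 11.50 and 11.44 on knockout arrays. The Lmo2-labelled arrays were below all others; knockout replicate 1 lay at the low end of wild-type and the other knockout arrays above it. Ifitm1 fell by 1.50 on the log2 scale on Lmo2-labelled arrays (SE 0.35, limma adjusted p = 0.0131) and was 2.48 ± 0.40 higher on knockout than on Lmo2-labelled arrays (limma adjusted p = 0.0015). A second Ifitm1 probe gave -2.61 and 2.61 in these comparisons (limma adjusted p = 0.000513 and 0.00165). That probe was detected on 10 of 12 arrays and read 5.00, 5.62 and 4.88 on Lmo2-labelled arrays. These levels are near background, so the sizes of its differences are uncertain. The 2 dimmest Ifitm1 probes, detected on 3 and 4 of 12 arrays, gave 0.94 (limma adjusted p = 0.139) and 0.85 (0.0426) for knockout against Lmo2. Against wild-type, these dim probes gave -0.41 and -0.23 on Lmo2-labelled arrays (limma adjusted p = 0.451 and 0.544).

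Ifitm2 read 10.51 to 11.46 on wild-type arrays (median 10.86), 9.72, 10.26 and 9.54 on Lmo2-labelled arrays, and 10.62, 11.03 and 10.94 on knockout arrays. The Lmo2-labelled arrays did not overlap either other group, and the knockout arrays lay within the wild-type range. It fell by 1.07 on the log2 scale on Lmo2-labelled arrays (SE 0.22, limma adjusted p = 0.0064) and was 1.02 ± 0.25 higher on knockout than on Lmo2-labelled arrays (limma adjusted p = 0.0211). Against wild-type the knockout difference was -0.05 ± 0.22.

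Ifitm6 differed little on Lmo2-labelled arrays (-0.21 ± 0.52, limma adjusted p = 0.843) and had the largest change of the 40 genes on knockout arrays. It read 4.69 to 6.72 on wild-type arrays (median 5.26), 5.33, 5.09 and 5.36 on Lmo2-labelled arrays, and 8.09, 10.47 and 10.27 on knockout arrays. The knockout arrays lay above all others by more than 1 unit. The knockout difference was 4.35 ± 0.60 against Lmo2 (SE; limma adjusted p = 0.000489) and 4.14 ± 0.52 against wild-type (limma adjusted p = 0.00218); the probe was detected on only 3 of 6 wild-type and 2 of 3 Lmo2-labelled arrays, so the dim levels are near background.

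**Figure D2:**
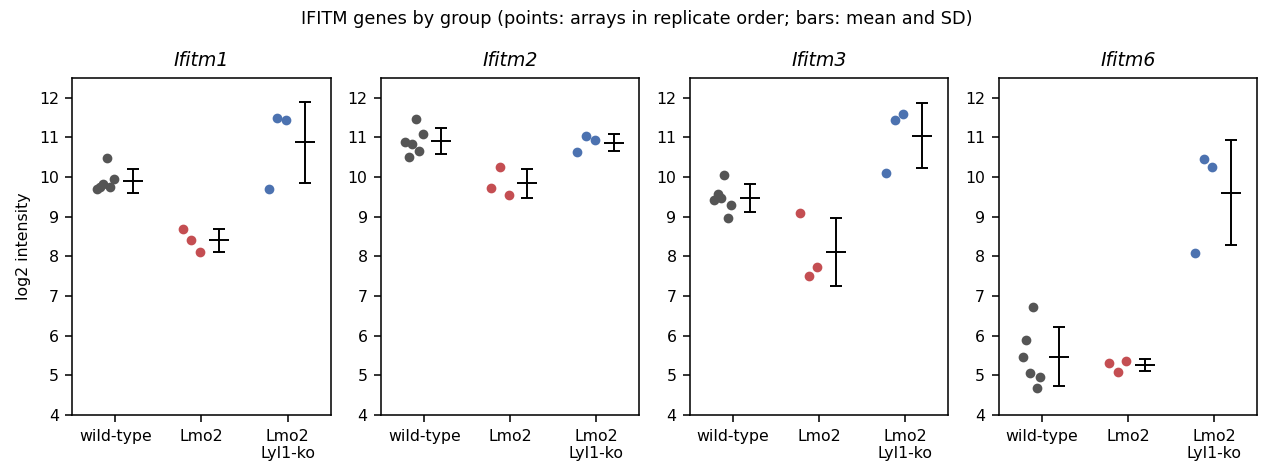
Log2 intensity of the 4 IFITM genes on each array by group; points are arrays in replicate order, bars the group mean and SD. The group means of Ifitm1, Ifitm2 and Ifitm3 are lowest on Lmo2-labelled arrays, and Ifitm6 is at 8.09 or above on the 3 Lmo2 Lyl1-knockout arrays and at 6.72 or below on all others.

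In each of the 4 IFITM genes knockout replicate 1 was the lowest knockout array. The 7 granulocyte genes measured were also lowest there among the knockout arrays. All 7 of the granulocyte genes measured were higher on knockout than on Lmo2-labelled arrays, beside 4.79% of all genes. The differences ran from 2.63 (Elane, neutrophil elastase) to 7.10 (Ngp, a secondary granule protein), with limma adjusted p of 0.00887 or less. Before subtraction of wild-type, the mean of the 7 genes was 5.20, 6.87 and 5.50 on Lmo2 replicates 1 to 3. The median probe of an array read 4.88 to 4.89. Levels on Lmo2 replicates 1 and 3 are thus near background, and the sizes of the differences are uncertain for these granulocyte genes. Their mean level relative to wild-type was 2.63, 4.73 and 4.57 on knockout replicates 1 to 3, and -2.49, -0.82 and -2.19 on Lmo2 replicates 1 to 3. The mean of the 4 IFITM genes was 0.69, 2.17 and 2.12 on the same knockout arrays and -0.73, -1.12 and -1.25 on the Lmo2-labelled arrays. The order on the Lmo2-labelled arrays differed: the granulocyte mean was highest on replicate 2 and the IFITM mean on replicate 1. Among wild-type arrays, replicate 4 was highest for the granulocyte mean (1.84) and for the IFITM mean (0.74). Wild-type replicate 6, next for the granulocyte mean (0.99), had an IFITM mean of -0.11. All 7 granulocyte genes were detected on all 3 knockout arrays, and their part in the IFITM differences was not tested.

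**Figure D3:**
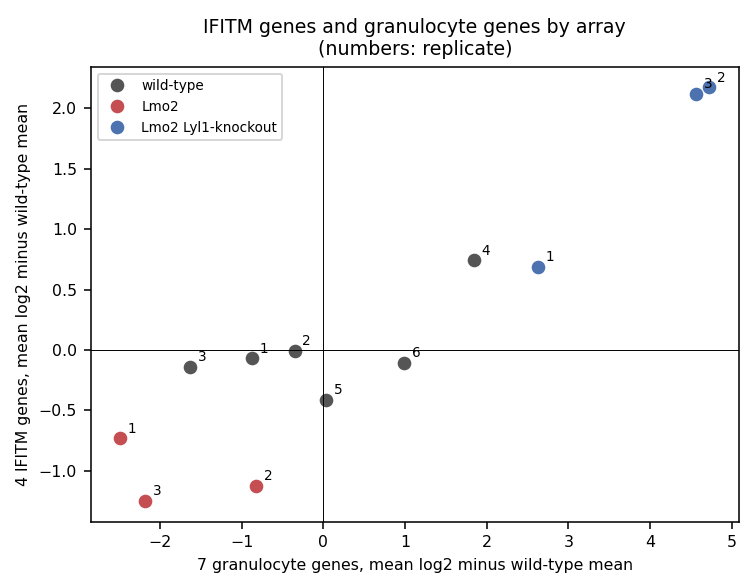
Mean of the 4 IFITM genes against the mean of 7 granulocyte genes on each array, both as log2 difference from the wild-type mean; colours are groups, numbers replicates. Knockout replicates 2 and 3 sit at the upper right (4.73 and 2.17, 4.57 and 2.12), knockout replicate 1 and wild-type replicate 4 between them and the rest, and the Lmo2-labelled arrays at the lower left.

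Ifitm1, Ifitm2, Ifitm3 and Ifitm6 neighbour each other on chromosome 7, and their upstream sequences are shown because these genes carry most of the calls. Each is the 250 bases before the annotated start, from RefSeq on build GRCm38.p6, read 5′ to 3′ on the gene's strand: Ifitm1 at chr7:140967826-140968075, plus strand; Ifitm2 at chr7:140955962-140956211, minus strand; Ifitm3 at chr7:141010745-141010994, minus strand; Ifitm6 at chr7:141016893-141017142, minus strand. Capitals mark a match to the ISRE letters (GAAA, any 2 bases, GAAA; Ifitm2) or to the GAS letters TTCNNNGAA (Ifitm6), searched on both strands.
Ifitm1: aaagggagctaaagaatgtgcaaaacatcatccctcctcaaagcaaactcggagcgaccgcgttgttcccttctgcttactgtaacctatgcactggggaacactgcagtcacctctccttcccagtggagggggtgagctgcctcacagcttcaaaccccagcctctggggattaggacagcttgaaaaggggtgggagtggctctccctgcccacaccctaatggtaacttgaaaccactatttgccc
Ifitm2: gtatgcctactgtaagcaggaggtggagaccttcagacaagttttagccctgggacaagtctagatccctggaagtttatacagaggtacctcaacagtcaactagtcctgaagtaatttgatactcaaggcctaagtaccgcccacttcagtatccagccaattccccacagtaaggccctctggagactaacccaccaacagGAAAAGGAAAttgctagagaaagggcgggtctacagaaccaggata
Ifitm3: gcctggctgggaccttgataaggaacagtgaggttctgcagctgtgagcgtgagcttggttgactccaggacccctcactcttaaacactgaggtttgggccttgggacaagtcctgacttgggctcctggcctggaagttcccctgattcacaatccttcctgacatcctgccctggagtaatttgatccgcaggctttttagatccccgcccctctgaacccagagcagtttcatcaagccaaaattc
Ifitm6: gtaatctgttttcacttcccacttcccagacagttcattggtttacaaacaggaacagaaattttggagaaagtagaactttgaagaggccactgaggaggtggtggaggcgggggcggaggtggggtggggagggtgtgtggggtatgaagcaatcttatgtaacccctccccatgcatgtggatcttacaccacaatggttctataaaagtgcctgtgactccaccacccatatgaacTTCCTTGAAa
Ifitm1 and Ifitm3 held neither set of letters in these 250 bases. In Ifitm3 ISRE letters begin 2 bases after the start, and GAS letters also appeared once 50 bases after the start were included. Ifitm6 held GAS letters that begin 10 bases before the start and no ISRE letters. A match is a description of the letters, not of a bound site.

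Rtp4, a chaperone that carries receptors to the cell surface and has antiviral activity, was the 1 gene that rose on Lmo2-labelled arrays. It read 4.81 to 5.75 on wild-type arrays (median 5.21), 6.69, 5.72 and 6.55 on Lmo2-labelled arrays, and 5.55, 5.65 and 6.00 on knockout arrays. Lmo2 replicate 2 lay inside the wild-type range and the other Lmo2-labelled arrays above it. The difference was 1.06 ± 0.24 (SE; limma adjusted p = 0.0115). It lost the call without Lmo2 replicate 1 (0.87, limma adjusted p = 0.0569) or replicate 3 (0.94, 0.0551). Mx2, a dynamin-like antiviral GTPase, was next, with 5.57 to 6.30 on wild-type arrays and 7.24, 6.36 and 6.44 on Lmo2-labelled arrays, which did not overlap. Its difference of 0.76 ± 0.23 missed the threshold (limma adjusted p = 0.0516).

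The 3 Lmo2-labelled arrays differed from each other more in interferon-stimulated genes than in genes at large. The median SD over the 3 arrays was 0.56 for the 40 genes and 0.33 for all 10526. On the 6 wild-type arrays these medians were 0.31 and 0.28, and on the 3 knockout arrays 0.24 and 0.18. The wider spread on Lmo2-labelled arrays was not particular to the 40 genes. It was 0.63 for natural killer cell, 0.70 for plasmacytoid dendritic cell, 0.75 for granulocyte, 0.87 for macrophage and 0.96 for B cell genes. It was 0.39 for 24 other interferon-inducible genes, 0.41 for receptor and signalling genes, 0.40 for nucleic acid sensing genes and 0.31 for T-lineage markers. An SD above 1 on the Lmo2-labelled arrays was found for 8 of the 40 genes (20.0%), against 4.99% of all genes. They are Ifit3, Oas1g, Rsad2, Isg15, Oasl2, Mx1, Psmb8 and Usp18. No SD of the 40 genes exceeded 1 on the wild-type arrays, where 0.84% of all genes did. On the knockout arrays 3 of the 40 genes (7.5%) exceeded 1, against 0.73% of all genes.

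The order of the 3 arrays was alike in most of the genes. Lmo2 replicate 1 was the highest of the 3 in 32 of 40 genes (80.0%), whereas it was the highest in 26.0% of all genes. It stood above all 6 wild-type arrays in 23 of the 40 genes (57.5%), against 21.2% of all genes. Relative to the wild-type mean, the median of the 40 genes was 0.58 on Lmo2 replicate 1, -0.22 on replicate 2 and -0.21 on replicate 3. Replicate 2 was the lowest in 23 of the 40 genes and replicate 3 in 15.

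**Figure D4:**
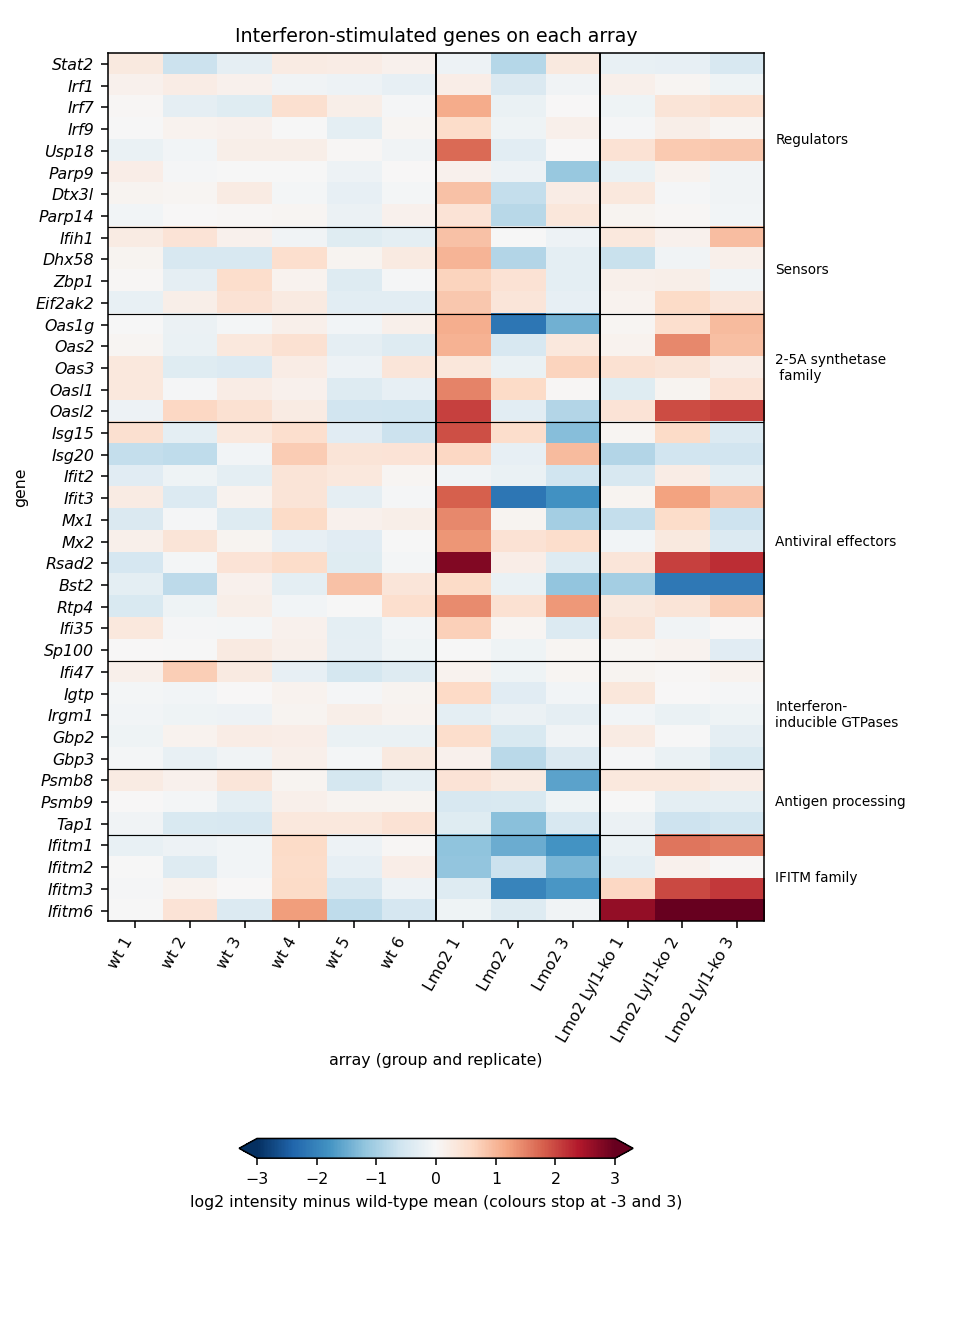
Log2 intensity of each of the 40 genes (rows, by role) on each of the 12 arrays (columns, by group and replicate), as the difference from the gene's wild-type mean; red is higher, blue lower, and colours stop at 3 units. Lmo2 replicate 1 is red in most sensors, OAS genes and antiviral effectors, and the deepest red on knockout arrays is at Ifitm6.

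Ifit3, the antiviral effector with the largest SD of the 40 genes on the Lmo2-labelled arrays, which binds viral RNA together with its relatives, read 8.52 to 9.33 on wild-type arrays (median 8.97), 10.74, 6.78 and 7.12 on Lmo2-labelled arrays, and 9.01, 10.15 and 9.80 on knockout arrays. Lmo2 replicate 1 was above all wild-type arrays and replicates 2 and 3 below all of them, so that the mean difference of -0.73 ± 0.67 (limma adjusted p = 0.537) describes none of the 3 arrays. A second Ifit3 probe read 8.88, 5.20 and 4.70 on the same Lmo2-labelled arrays.

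Rsad2, or viperin, which makes a chain-terminating nucleotide, read 6.85 to 7.90 on wild-type arrays (median 7.29), 10.12, 7.56 and 6.97 on Lmo2-labelled arrays, and 7.71, 9.41 and 9.55 on knockout arrays. Here Lmo2 replicate 1 was alone above wild-type, while replicates 2 and 3 lay inside its range. Knockout replicates 2 and 3 were also above all wild-type arrays, and the knockout difference from wild-type of 1.54 ± 0.60 missed the threshold (limma adjusted p = 0.342).

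Isg15, a ubiquitin-like protein that is joined to other proteins, read 7.54 to 8.68 on wild-type arrays (median 8.20), 10.11, 8.71 and 6.90 on Lmo2-labelled arrays, and 8.26, 8.76 and 7.79 on knockout arrays. Mx1, a GTPase that is defective in many inbred mouse strains, read 5.02 to 6.02 on wild-type arrays (median 5.50), 6.89, 5.53 and 4.43 on Lmo2-labelled arrays, and 4.74, 6.01 and 4.84 on knockout arrays. For both genes Lmo2 replicate 1 was above wild-type and replicate 3 below it. Replicate 2 was inside the range for Mx1 and just above it for Isg15. The Mx1 probe was detected on 7 of 12 arrays, and its 4.43 lies below the median probe of that array (4.88). Its placing on replicate 3 and its SD on Lmo2-labelled arrays thus rest partly on a background level.

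Bst2, or tetherin, which holds budding virus at the membrane and is also a marker of plasmacytoid dendritic cells, took another course. It read 8.41 to 10.08 on wild-type arrays (median 9.11), 9.77, 9.001 and 8.003 on Lmo2-labelled arrays, and 8.18, 7.05 and 7.06 on knockout arrays. Every knockout array was below every wild-type array, yet the differences of -1.77 ± 0.42 from wild-type and -1.50 ± 0.49 from Lmo2 missed the threshold (limma adjusted p = 0.0813 and 0.078). Among the other plasmacytoid dendritic cell genes, Siglech, like Irf8, fell on Lmo2-labelled arrays (-1.42 ± 0.28, limma adjusted p = 0.00571) and was -0.86 ± 0.28 on knockout arrays against wild-type (limma adjusted p = 0.25). Of the 6 plasmacytoid dendritic cell genes, Bst2 included, 1 lay above 0 for knockout against wild-type (median -1.01). For knockout against Lmo2, 4 of the 6 lay above 0 (median 0.23), the other way from Bst2. The part of these cells in the Bst2 levels was not tested. Isg20, an exonuclease that degrades RNA, read 5.89 to 7.44 on wild-type, 7.30, 6.43 and 7.63 on Lmo2 and 5.80, 6.08 and 6.09 on knockout arrays. The knockout arrays were all below the Lmo2-labelled arrays (-1.13 ± 0.41, limma adjusted p = 0.113). Ifit2, Ifi35 and Sp100, the last a component of nuclear bodies, gave differences between -0.31 and 0.12 in the 3 comparisons.

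The oligoadenylate synthetase (OAS) family makes the messenger that activates RNase L, and Oasl1 and Oasl2 are OAS-like proteins. Oas1g read 7.78 to 8.10 on wild-type arrays (median 7.92), 9.04, 5.79 and 6.51 on Lmo2-labelled arrays, and 8.02, 8.46 and 8.89 on knockout arrays. As for Ifit3, Lmo2 replicate 1 was above and replicates 2 and 3 were below all wild-type arrays; a second Oas1g probe read 8.09, 4.96 and 4.71 on them. The mouse Oas1 genes are near-identical copies, so signal of one may be read by the probe of another.

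Oasl2 read 7.47 to 8.69 on wild-type arrays (median 8.12), 10.12, 7.74 and 7.20 on Lmo2-labelled arrays, and 8.49, 10.03 and 10.09 on knockout arrays. Lmo2 replicate 1 and knockout replicates 2 and 3 stood above wild-type. Oas2 read 7.96, 6.45 and 7.25 on Lmo2 and 7.04, 8.37 and 7.83 on knockout arrays against 6.54 to 7.38 on wild-type. Of the 5 genes of this family, 4 were highest on Lmo2 replicate 1 among the Lmo2-labelled arrays, the exception being Oas3, and none passed the threshold in any comparison, with a lowest limma adjusted p of 0.143 (Oasl1, Lmo2 against wild-type).

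Among the regulators, Usp18, the protease that removes Isg15 from proteins and dampens the receptor, read 8.79 to 9.18 on wild-type arrays (median 8.97), 10.70, 8.69 and 9.01 on Lmo2-labelled arrays, and 9.43, 9.79 and 9.80 on knockout arrays. All 3 knockout arrays were above wild-type by a difference of 0.68 ± 0.34 that missed the threshold (limma adjusted p = 0.448). A second Usp18 probe read 9.04, 7.21 and 4.64 on the Lmo2-labelled arrays against 5.48 to 7.06 on wild-type arrays. Both probes put replicate 1 above wild-type, but they disagreed on replicates 2 and 3, and 4.64 is near background. Irf7, which amplifies type I interferon production, read 6.12 to 6.94 on wild-type and 7.60, 6.27 and 6.48 on Lmo2-labelled arrays, with Lmo2 replicate 1 alone above wild-type.

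None of the 8 regulators passed the threshold between genotypes in the main fit. Stat2 differed by -0.24 ± 0.26, Irf1 by -0.11 ± 0.16 and Irf9 by 0.20 ± 0.16 between Lmo2 and wild-type arrays (limma adjusted p = 0.604, 0.703 and 0.464). Stat2 was highest on Lmo2 replicate 3 (7.35, 6.66 and 7.81), the only regulator of 8 that was not highest on replicate 1. Irf1 read 12.56, 11.94 and 12.27 on the Lmo2-labelled arrays, but 2 of its other probes read 9.65, 9.08 and 6.99, and 9.46, 8.82 and 6.39, while another read 10.75, 9.95 and 11.64, so its probes disagreed on replicate 3. The poly-ADP-ribose polymerase family members Parp9 and Parp14 and Parp9's partner Dtx3l gave differences between -0.39 and 0.13 from wild-type on Lmo2-labelled arrays.

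The 4 sensors, the RNA helicases Ifih1 and Dhx58, the nucleic acid sensor Zbp1 and the RNA-activated kinase Eif2ak2, were all highest on Lmo2 replicate 1 and there above all wild-type arrays. Their differences from wild-type on Lmo2-labelled arrays ran from -0.05 to 0.30 with none past the threshold. Ifih1 was near background, detected on 3 of 12 arrays.

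The interferon-inducible GTPases varied less, with a median SD of 0.47 on Lmo2-labelled arrays. Gbp2, a guanylate-binding protein, read 9.82 to 10.26 on wild-type arrays (median 10.02), 10.57, 9.57 and 9.92 on Lmo2-labelled arrays, and 10.28, 10.02 and 9.77 on knockout arrays, with differences of -0.01, 0.00 and -0.01 in the 3 comparisons. Irgm1 read 13.55 to 13.87, 13.41, 13.53 and 13.42, and 13.62, 13.50 and 13.57 on the 3 groups. Ifi47, another GTPase of this class, was the 1 gene of 40 that differed between the wild-type sets: it read 10.79, 11.37 and 10.90 on replicates 1 to 3 and 10.38, 10.12 and 10.25 on replicates 4 to 6 (0.77, limma adjusted p = 0.0231). This 1 gene stands beside 6.70% of all genes called between the sets, and its call was lost in 5 of 13 alternatives (limma adjusted p of up to 0.093).

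Of the antigen-processing genes, Psmb8, a catalytic subunit of the immunoproteasome, read 12.72 to 13.60 on wild-type arrays (median 13.36), 13.67, 13.51 and 11.65 on Lmo2-labelled arrays, and 13.57, 13.57 and 13.47 on knockout arrays. Lmo2 replicate 3 stood below every other array, while a second Psmb8 probe read 10.61, 10.17 and 9.94 on the Lmo2-labelled arrays. Tap1, a subunit of the peptide transporter, read 8.54 to 9.47 on wild-type arrays and 8.66, 7.78 and 8.53 on Lmo2-labelled arrays (-0.70 ± 0.26, limma adjusted p = 0.106). Psmb9 gave -0.36 ± 0.14 (limma adjusted p = 0.119).

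**Figure D5:**
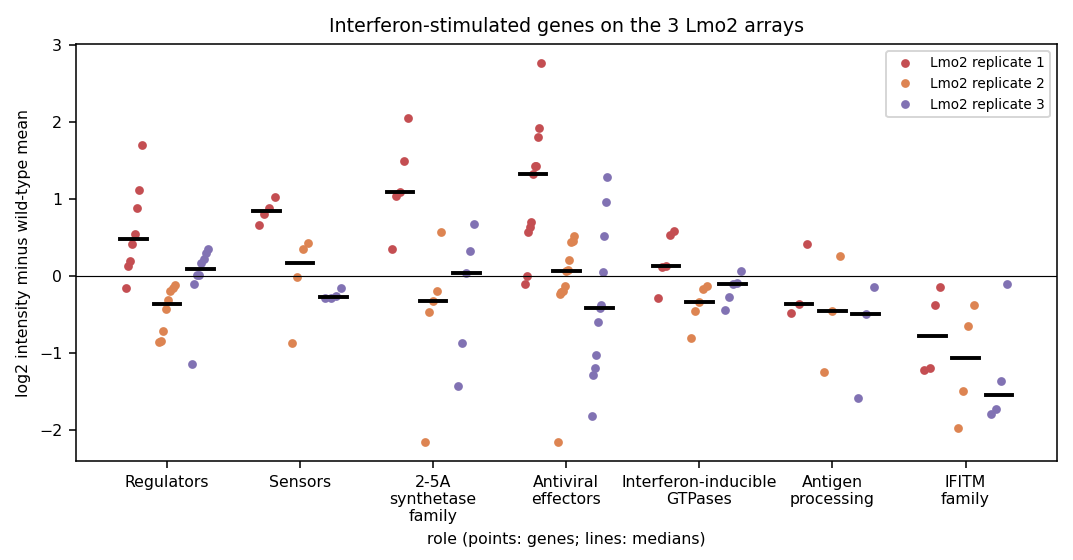
Log2 difference from the wild-type mean of each gene on the 3 Lmo2-labelled arrays, by role; points are genes, colours the replicates and black lines the medians. The median of Lmo2 replicate 1 is above 0 in 5 of 7 roles, with 1.32 for antiviral effectors, and below 0 for antigen processing (-0.37) and the IFITM family (-0.79).

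Macrophage genes were also highest on Lmo2 replicate 1. On replicate 3, however, their mean lay above wild-type and that of the 40 genes below it. The mean of the 4 macrophage genes measured (C1qb, C1qc, Csf1r and Adgre1) was 1.94, 0.43 and 1.14 above wild-type on Lmo2 replicates 1 to 3. This mean ranged from -0.36 to 0.28 on wild-type and from 0.38 to 1.18 on knockout arrays. All 4 were highest on Lmo2 replicate 1 among the Lmo2-labelled arrays, beside 26.0% of all genes. Their differences between Lmo2 and wild-type ran from -0.01 to 2.00, and 3 of the 4 lay above 0. C1qb, a complement subunit, read 8.25, 6.00 and 7.50 on the Lmo2-labelled arrays and 4.86 to 6.19 on wild-type arrays, near background at the low end. Relative to wild-type, the mean of the 40 genes was 0.61, -0.38 and -0.36 on the same arrays. The mean of 7 natural killer cell genes was -1.63, -2.65 and -1.43, and that of 6 plasmacytoid dendritic cell genes, Bst2 included, -0.76, -1.40 and -0.70, on these arrays. The part of these cells in the interferon-stimulated genes was not tested.

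Leaving out Lmo2 replicate 1 changed which genes passed. Against wild-type, 0 genes then rose and 6 fell, beside 6.14% of all genes that rose and 5.25% that fell. The 6 were Ifitm1, Ifitm2, Ifitm3, Ifit3 (-1.99, limma adjusted p = 0.000932), Oas1g (-1.80, 0.00043) and Gbp3. Knockout against the remaining Lmo2-labelled arrays, 7 rose and 0 fell, beside 4.90% and 5.35% of all genes. The 7 were Usp18, Oas1g, Oasl2, Ifit3, Ifitm1, Ifitm3 and Ifitm6. In that setting the knockout difference was 2.71 for Ifit3 and 2.30 for Oas1g (limma adjusted p = 0.00029 and 0.0002). Without Lmo2 replicate 2, Mx2 and Rtp4 were higher and Ifitm1 and Ifitm2 lower against wild-type, beside 12.7% of all genes called in either direction. Knockout against Lmo2, 4 genes then rose and Isg20 and Rtp4 fell, beside 11.9% of all genes. Without replicate 3, Oasl1 was higher and Ifitm2 lower against wild-type, beside 9.45% of all genes, and 3 genes rose and Bst2 fell for knockout against Lmo2, beside 8.47%. So Ifitm2 fell with any 1 Lmo2 array left out.

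Against wild-type replicates 1 to 3 alone, 1 gene (Rtp4) rose and 1 (Ifitm2) fell on Lmo2-labelled arrays, beside 3.57% of all genes that rose and 3.46% that fell. Against replicates 4 to 6 alone, Mx2 and Rtp4 rose and Ifitm1, Ifitm2, Irgm1, Psmb9 and Tap1 fell, beside 11.1% and 11.9% of all genes. For the knockout arrays, Ifitm6 rose and no gene of the 40 fell against replicates 1 to 3, beside 0.342% and 0.114% of all genes. Against replicates 4 to 6, Ifitm6 rose and Isg20 and Bst2 fell, beside 4.63% and 5.59% of all genes.

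The ISRE letters were counted in the promoters of these genes and of all genes. RefSeq promoter windows of 300 bases (250 before and 50 after the start, GRCm38.p6) were matched for 31 of the 40 genes, and 15 of the 31 (48.4%) held the letters on either strand, against 3.99% of 27025 genes and 3.44% of 32851 windows. GAS letters were held by 10 of the 31 (32.3%), against 9.55% of all genes. The genes were chosen as interferon targets, so this shows what the list is made of. Rtp4, Parp14, Parp9, Mx2, Oas2, Mx1, Dhx58, Usp18 and Zbp1 had no entry. The median SD on the Lmo2-labelled arrays was 0.56 for the 15 genes with ISRE letters and 0.41 for the 16 without, and Lmo2 replicate 1 was the highest Lmo2 array in 11 of the 15 and 12 of the 16.

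The upstream sequences of the 4 genes with the largest SD on the Lmo2-labelled arrays are shown, with the ISRE letters each holds: Ifit3 at chr19:34583359-34583528, plus strand; Oas1g at chr5:120887614-120887783, minus strand; Rsad2 at chr12:26456453-26456622, minus strand; Isg15 at chr4:156200819-156200988, minus strand. Each is the 170 bases before the start on the gene's strand, 5′ to 3′, with ISRE letters of either strand in capitals; overlapping matches run together.
Ifit3: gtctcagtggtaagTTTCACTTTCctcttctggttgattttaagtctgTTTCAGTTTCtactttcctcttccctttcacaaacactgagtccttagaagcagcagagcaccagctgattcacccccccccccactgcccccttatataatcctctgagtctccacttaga
Oas1g: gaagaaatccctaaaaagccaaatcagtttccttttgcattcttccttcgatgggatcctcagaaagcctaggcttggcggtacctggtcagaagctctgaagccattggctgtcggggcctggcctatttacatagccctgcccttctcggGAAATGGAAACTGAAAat
Rsad2: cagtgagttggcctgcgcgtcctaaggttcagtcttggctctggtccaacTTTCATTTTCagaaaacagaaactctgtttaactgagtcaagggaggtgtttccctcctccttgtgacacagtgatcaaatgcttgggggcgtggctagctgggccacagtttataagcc
Isg15: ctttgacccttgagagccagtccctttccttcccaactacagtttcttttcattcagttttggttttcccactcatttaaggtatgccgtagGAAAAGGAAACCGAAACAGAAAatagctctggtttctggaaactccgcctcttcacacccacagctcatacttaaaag
Ifit3 held 2 matches, Oas1g 2 that overlap, Rsad2 1 and Isg15 3 that overlap. On Ifit3 and Rsad2 the letters lie on the opposite strand.

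Other genes of the pathway were set beside the 40. Of 16 receptor and signalling genes measured, 1 rose and 3 fell on Lmo2-labelled arrays, and 1 rose and 1 fell on knockout against Lmo2-labelled arrays; none was called for knockout against wild-type. Of all genes, 6.64% rose and 5.89% fell in the first comparison and 4.79% and 5.57% in the second. Tyk2, a kinase of the type I receptor, fell (-0.55 ± 0.14, limma adjusted p = 0.0256) and read 10.03, 9.83 and 9.47 on Lmo2-labelled arrays, all below the lowest wild-type array at 10.10. Stat3, a factor of cytokine signalling, read 12.10, 11.45 and 12.03 on Lmo2-labelled arrays, above the 10.66 to 11.15 of wild-type arrays, and rose (0.92 ± 0.18, limma adjusted p = 0.0045); on knockout arrays it was 0.81 lower than on Lmo2-labelled arrays (-0.81 ± 0.21, 0.0242).

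Ifng, the gene of interferon gamma, read 6.56, 6.42 and 6.65 on wild-type replicates 1 to 3, 8.25, 7.86 and 7.62 on replicates 4 to 6, 5.96, 5.39 and 5.26 on Lmo2-labelled arrays, and 7.04, 7.06 and 7.34 on knockout arrays. It was lowest on Lmo2-labelled arrays (-1.69 ± 0.38, limma adjusted p = 0.0122) and 1.61 ± 0.44 higher on knockout than on Lmo2-labelled arrays (limma adjusted p = 0.0378), and it also differed between the wild-type sets (limma adjusted p = 0.0105). Irf8, a myeloid and dendritic cell factor, fell on Lmo2-labelled arrays (-1.58 ± 0.30, limma adjusted p = 0.00405). The receptor chains Ifnar2, Ifngr1 and Ifngr2 and the kinase Jak1 did not pass in any comparison. Ifnar1 did not enter the tests.

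Of 13 nucleic acid sensing genes, 1 fell on Lmo2-labelled arrays, beside 5.89% of all genes, and 2 rose on knockout against Lmo2-labelled arrays, beside 4.79% of all genes. Samhd1, which breaks down nucleotides that viruses need, read 8.06, 6.16 and 6.95 on Lmo2-labelled arrays against 8.35 to 8.92 on wild-type and 8.71, 9.32 and 9.13 on knockout arrays (-1.59 ± 0.32 and 2.00 ± 0.37, limma adjusted p = 0.00571 and 0.00365). Mb21d1, the DNA sensor cGAS, was 0.86 ± 0.22 higher on knockout than on Lmo2-labelled arrays (limma adjusted p = 0.028).

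Of 24 other interferon-inducible genes, among them Gbp4, read here by the same probe as Gbp3, 1 rose and 4 fell on Lmo2-labelled arrays, and 2 rose and 4 fell on knockout against Lmo2-labelled arrays; 1 fell on knockout against wild-type arrays. The shares of all genes were 6.64% and 5.89%, 4.79% and 5.57%, and 0.409% for the last fall. The classical MHC class I heavy chains H2-K1 and H2-D1 fell on Lmo2-labelled arrays (-1.25 ± 0.26 and -1.29 ± 0.25, limma adjusted p = 0.00767 and 0.00411) and were higher on knockout than on Lmo2-labelled arrays (1.28 ± 0.31 and 1.10 ± 0.28, 0.0176 and 0.026). H2-K1 read 10.27, 9.64 and 9.17 on Lmo2-labelled arrays against 10.46 to 11.40 on wild-type arrays, which did not overlap; MHC class I genes are alike in sequence, so probes may read more than 1 of them. Nlrc5, the transactivator of these genes, fell on Lmo2-labelled arrays (-1.18 ± 0.21, limma adjusted p = 0.00274), as did Ly6c1 (-1.65 ± 0.29, 0.00247). Cxcl10, a chemokine, was detected on the 3 Lmo2-labelled arrays and on no other, so it entered the tests only through the group where it is high. It read 5.70, 5.21 and 5.41 there, at least 1.12-fold above wild-type and 1.19-fold above knockout arrays on raw values normalized here, and its calls in these counts are against background.

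Trim30, a ubiquitin ligase family member that restrains inflammatory signalling, was lower on knockout arrays. It read 8.27 to 9.30 on wild-type arrays, 9.80, 9.33 and 9.98 on Lmo2-labelled arrays, and 7.78, 4.59 and 4.56 on knockout arrays. It was detected on 1 of the 3 knockout arrays, and replicates 2 and 3 lay below the median probe of an array (4.88 to 4.89), so the size of the fall is not measured there. The fitted differences, which rest on those background values, were -4.06 ± 0.67 from Lmo2 and -3.11 ± 0.58 from wild-type (limma adjusted p = 0.0017 and 0.02). Trim21, an antibody receptor in the cytosol, and Ifi27 were also lower on knockout than on Lmo2-labelled arrays (-0.96 ± 0.23 and -0.60 ± 0.17, limma adjusted p = 0.016 and 0.0423).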

How the data were processed

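Total RNA of sorted CD4-CD8 double-negative thymocytes was hybridised to 12 BeadChip arrays (Illumina MouseWG-6 v2.0), 1 sample per array. Per the file headers, the deposited raw table holds 1 linear intensity per probe and array, with a detection p-value beside each intensity. The authors' deposited value table holds log2 values, which were used for the tests. The submitters' processing notes name BeadStudio and limma without versions. No source used here gives the background method. Each log2 column matched 1 raw column after normal-exponential background correction, quantile normalization and an offset of 16 (neqc, r of 0.9999 or more, mean absolute difference between 0.0523 and 0.0527), which settles its scale, direction and lack of centring. Column medians were 4.88 to 4.89.

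The 45 interferon-stimulated genes, their roles, the other gene lists and the genes named were chosen with earlier results of these data known. Named with values were every gene past the threshold, a set of key interferon-stimulated genes, the 4 IFITM genes and the 6 genes with the largest SD on the Lmo2 arrays, and other genes where they moved in an alternative. Of 45281 probes, 34885 had 1 gene symbol, 18 several and 10378 none. Probes with a detection p-value under 0.05 on at least 3 arrays were kept (20651), and the brightest kept probe by mean stood for each of 10526 genes.

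Group means were fitted over the 12 arrays together (limma 3.58.1, R 4.3.3; lmFit, contrasts.fit and eBayes, 9 residual degrees of freedom). Tests were two-sided, with Benjamini-Hochberg adjustment over 10526 genes and a threshold of 0.05. The procedure was tested on simulated data. A separate fit gave the wild-type arrays 2 means. Alternatives changed the value source, scaling, detection filter, probe choice, arrays in the fit, array weights, variance trend, replicate block and wild-type set. The number of arrays limits the precision. The main fit did not pair arrays by replicate number, and 3 arrays a set are too few to tell whether the numbers pair them. Correlations of same-numbered deviations from the set means, with the wild-type arrays in 2 sets, ran from -0.31 to 0.17. For knockout against Lmo2 they were 0.128, 0.076 and 0.024 on replicates 1 to 3. The highest with another number were -0.007, -0.019 and 0.063.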

Additional observations from a re-analysis of the deposited data

Results flagged for a closer look

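Among the 6 wild-type arrays, 1 array stood far from the others in 2 of the 40 genes examined. Chance alone gives about 1 in 20, so this share is no more than that of chance. Irf9, the DNA-binding partner of Stat2, was lowest on wild-type replicate 5 at 9.31, with the nearest array at 9.59 and the highest at 9.73. Ifitm1 was highest on wild-type replicate 4 at 10.48, with the nearest array at 9.94 and the lowest at 9.69. The same array had the highest mean of the 7 granulocyte genes among wild-type arrays, 1.84 above the wild-type mean. The part of that in its Ifitm1 level was not tested.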

How the results depend on the processing

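No value changed sign while called under any alternative run. Ifitm6 against both groups and Ifitm1 and Ifitm3 for knockout against Lmo2 kept their calls in every alternative run on them. Ifitm3 for Lmo2 against wild-type lost its call in 12 of 21, with an adjusted p of up to 0.223 (limma); Ifitm1 lost it in 4 of 21, Ifitm2 in 1 of 21 and Rtp4 in 2 of 20. Ifitm2 for knockout against Lmo2 lost it in 5 of 16 and Ifi47 between the wild-type sets in 5 of 13. Causes were not tested.

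Counts of the 40 genes moved as follows. With raw values scaled to a common median, 0 differed between the wild-type sets. With detection on all 12 arrays, which leaves 34 of the genes, 0 rose for knockout against wild-type, since Ifitm6 was not tested, and 2 differed between the wild-type sets. With only the 2 groups compared in the fit, 3 rose and 1 fell for knockout against wild-type. With array weights, 2 rose and 1 fell for Lmo2 against wild-type, 1 fell for knockout against Lmo2, and 6 rose and 3 fell for knockout against wild-type, where 22.5% of all genes were called. With a variance trend, 1 fell for knockout against wild-type and 2 differed between the wild-type sets. With the replicate number as a block, 0 fell for Lmo2 against wild-type and 1 fell for knockout against Lmo2. Against wild-type replicates 1 to 3 alone, 1 fell for Lmo2; against replicates 4 to 6 alone, 2 rose and 5 fell for Lmo2 and 2 fell for knockout.

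With 1 array left out at a time, 0 to 2 rose and 1 to 6 fell for Lmo2 against wild-type, with medians of -0.25 to 0.20. For knockout against Lmo2, 3 to 7 rose and 0 to 2 fell, and for knockout against wild-type 1 to 3 rose and 0 fell. Between the wild-type sets 0 to 1 differed. The median SD ran from 0.266 to 0.325 on wild-type, 0.382 to 0.623 on Lmo2-labelled and 0.128 to 0.266 on knockout arrays.

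Over all 10526 genes, the 1319, 1090 and 110 calls of the 3 comparisons became 606, 804 and 31 with the replicate block. Knockout against wild-type gave 2366 with array weights, 190 with only its 2 groups (and 609 for knockout against Lmo2), 39 with detection on all 12 arrays, and 52 and 46 without knockout replicate 2 or 3. Against wild-type replicates 1 to 3 the counts were 740 for Lmo2 and 48 for knockout, and against replicates 4 to 6 they were 2424 and 1075. Dim probes limit what can be seen: Ifih1 was detected on 3 of 12 arrays, Mx1 on 7, Oas3 and Ifitm6 on 8 and Rtp4 on 9.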
